A study of Mus musculus with 6 samples.

Results

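RNA polymerase I and its initiation factors were described here through 10 genes, 5 for subunits of the enzyme (Polr1a, Polr1b, Polr1c, Polr1d and Polr1e) and 5 for factors that bring it to its promoter (Rrn3, Ubtf, Taf1a, Taf1c and Taf1d). They were taken by symbol from the platform annotation. All 10 were measured, by 26 of the 34945 probe sets that carry a single gene symbol, and they were 10 of 18193 genes in all. The cells were T-cell acute lymphoblastic leukaemias (T-ALL) of mice, driven by a constitutively active NOTCH1 receptor, Notch1ΔE. The comparison was between 2 groups of 3 arrays each, MycGFP positive and MycGFP negative, each numbered 1 to 3. Both groups came from C57BL/6 mice aged 12 weeks with the genotype Notch1[delta]E mycGFP, and both were CD25+ splenocytes taken 4 weeks after transplantation into congenic recipients. They differed in GFP, which reports MYC. Sorting used mCherry and GFP. The design describes 3 independent leukaemias, and no healthy T cells were among the arrays.

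RNA polymerase I makes one transcript, the precursor of the large ribosomal RNAs, in the nucleolus. At the promoter, the DNA-binding protein UBF (encoded by Ubtf) and the selectivity factor SL1, which holds TBP and several TAF subunits, mark the gene. RRN3, also called TIF-IA, then joins the polymerase to SL1, which is a step on which growth signals act. MYC is known to stimulate ribosomal RNA synthesis, both at the ribosomal genes and through genes for the polymerase and its factors.

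With 3 arrays in each group, precision is set by the number of arrays. The median intensity was 30.5 to 31.4 on positive and 31.7 to 32.7 on negative arrays. A yardstick for background came from 16 measured genes of other organs, such as those of liver or lens. Their intensities over the 6 arrays were 4.18 to 68.5, with a median of 18.3 and a 90th percentile of 37.55. For Gapdh, whose control probe sets report RNA integrity, the 3' to 5' ratio was 1.475 to 1.58 on positive and 1.582 to 1.89 on negative arrays, lower in every positive array, though the nearest arrays almost met. For actin that ratio overlapped, at 1.72 to 1.85 on positive and 1.54 to 1.87 on negative arrays. T cell markers were bright on all arrays, with Il2ra, the gene of CD25, at 5396 to 9462 on positive and 6777 to 10857 on negative arrays. Summed over 8 myeloid markers, intensity was 164 to 2635 on positive and 242 to 10396 on negative arrays, highest on the arrays numbered 2 in both groups, and none of the 8 was called different. The summed level of 3 endothelial markers was 237 to 321 on positive and 377 to 690 on negative arrays, nearly all of it Pecam1, with Cdh5 and Kdr under the array median on all arrays. The summed level of 2 measured natural killer markers was 5555 to 7842 on positive and 4453 to 4997 on negative arrays, nearly all of it Gzma, with Ncr1 at 5.99 to 7.94. The part of these cells and of RNA integrity in the results was not tested. In sorted populations such as these, fewer cells with a transcript and less of it per cell cannot be told apart. Myc was 2.58-fold higher in positive cells (log2 difference 1.37, limma adjusted p = 0.0329).

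Of the 10 genes, Polr1b alone was called different between the groups, and it was higher in MycGFP positive cells (limma, Benjamini-Hochberg adjusted p under 0.05 over all genes). Across all genes 6.13% were called, 4.62% higher and 1.51% lower, so 1 of 10 rests on a single gene. This fit left out the array number. With the number as a block Polr1c was called too (limma adjusted p = 0.0393), where 5.75% of all genes were called higher. Without the block, at an unadjusted limma p under 0.05, Polr1a, Polr1b and Polr1c were higher and Taf1c was lower. Of all 18193 genes, 2677 were higher and 1338 lower at that level. The 3 positive values lay above the 3 negative ones for Polr1a, Polr1b and Polr1c and below them for Taf1c. These 4 of 10 stand against 28.1% of all genes whose groups did not overlap. That share was not matched for brightness, with a median intensity of 799.6 for the 10 genes and 53.5 for all genes. The median log2 difference, MycGFP positive minus negative, was 0.12 over the 10 genes. It was 0.01 over all genes and 0.14 over the brighter 9097 of them. Log2 differences were 2.40, 1.08 and 0.52 for the core subunit genes Polr1b, Polr1a and Polr1e, and 1.15 and -0.04 for the shared subunit genes Polr1c and Polr1d. By brightest probe set, those of the 5 initiation factor genes lay between -0.49 and 0.20, and Polr1d lay within that range. Further probe sets gave 0.57 for Ubtf and -0.30 to 1.48 for Taf1d. Tbp and Taf1b, the SL1 genes not among the 10, had log2 differences of 0.80 and 0.41 (limma adjusted p = 0.0374 and 0.246). The difference between subunit and initiation factor genes was not tested.

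**Figure D1:**
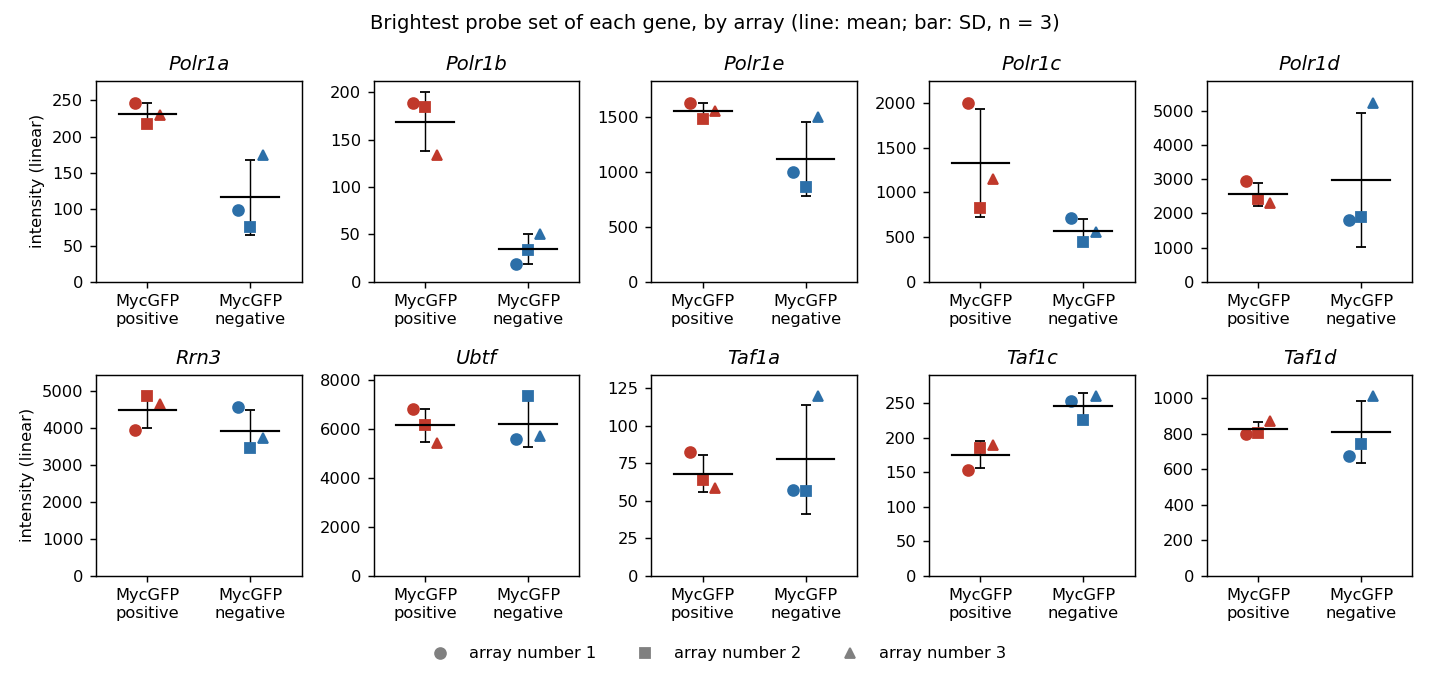
Linear intensity of the brightest probe set of each of the 10 genes on the 3 MycGFP positive and 3 MycGFP negative arrays, with the mean as a line and the SD as a bar (n = 3 each) and the array number as the symbol. The groups are apart for Polr1b, Polr1a and Polr1c, where positive arrays are higher, and for Taf1c, where they are lower, and negative array 3 is the highest negative array for 7 of the 10 genes.

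Polr1b encodes the smaller of the 2 large subunits that form the active centre. Its only probe set gave 189, 185 and 133 on positive arrays 1, 2 and 3, against 18.7, 33.6 and 50.7 on negative arrays 1, 2 and 3. Every positive value was above every negative one, by a wide margin. The negative values lay in the range of the genes of other organs, and that of negative array 1 was under the array median. That of negative array 3 was above the 90th percentile of those genes, 37.55. Mean intensity was 169 ± 31.1 in positive and 34.3 ± 16.1 in negative cells (SD, n = 3 each). The fold was 5.27 (log2 difference 2.40, 95% interval 1.48 to 3.32, limma adjusted p = 0.0259), and since the negative signal is close to background the size of this fold is uncertain. With 16 added to each intensity before the logarithm, the log2 difference was 1.91 (adjusted p = 0.027). Leaving out any 1 of the positive arrays ended the call for Polr1b (adjusted p = 0.0829, 0.101 and 0.0718 for arrays 1, 2 and 3), as did leaving out negative array 2 (0.0823). The log2 differences were then 2.31, 2.33, 2.56 and 2.44. With the array number as a block it was kept (adjusted p = 0.0443).

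Promoter windows of RefSeq, 250 bases before to 50 after each annotated start on build GRCm38.p6, were searched for the MYC and MAX E-box CACGTG, which reads the same on both strands. All 10 genes were matched, with 17 windows. Of all 32851 windows, 7.15% hold CACGTG, and it was found in 1 of the 17, that of Rrn3. Polr1b is shown as the one called gene, and Rrn3, which was not called, as the only gene of the 10 with the motif, in 2 copies. Polr1b lacks the motif, as do all the others, so motif and call cannot be compared here. Polr1c is shown for the related letters CACGCG, searched on both strands and found in 9.27% of all windows and 5 of the 17. By gene that was 4 of the 10, against 10.5% of all genes, since Ubtf alone has 6 of the 17 windows. The GC content of the windows was not taken into account. The motif letters are in capitals, and each sequence runs 5′ to 3′ along the gene's own strand.
Polr1b, chr2:129100746-129101045, plus strand: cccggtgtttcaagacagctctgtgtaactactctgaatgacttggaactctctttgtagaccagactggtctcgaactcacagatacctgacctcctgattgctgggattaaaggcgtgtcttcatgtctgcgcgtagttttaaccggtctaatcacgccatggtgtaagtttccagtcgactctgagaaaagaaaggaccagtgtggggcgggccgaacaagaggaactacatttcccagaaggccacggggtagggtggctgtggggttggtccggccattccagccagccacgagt
Rrn3, chr16:13780449-13780748, plus strand: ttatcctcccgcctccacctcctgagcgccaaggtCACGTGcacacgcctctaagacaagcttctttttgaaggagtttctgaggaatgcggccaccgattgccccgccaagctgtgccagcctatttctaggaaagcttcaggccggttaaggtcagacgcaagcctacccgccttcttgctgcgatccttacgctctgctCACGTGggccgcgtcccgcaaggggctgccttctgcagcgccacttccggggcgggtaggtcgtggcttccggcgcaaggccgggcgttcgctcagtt
Polr1c, chr17:46247996-46248295, minus strand: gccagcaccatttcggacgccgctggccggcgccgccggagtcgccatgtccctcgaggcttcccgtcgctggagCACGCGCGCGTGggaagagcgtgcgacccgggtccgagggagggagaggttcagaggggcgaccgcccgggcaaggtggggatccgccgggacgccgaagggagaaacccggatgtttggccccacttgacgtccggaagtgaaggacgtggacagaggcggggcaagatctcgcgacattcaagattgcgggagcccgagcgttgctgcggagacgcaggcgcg
In the Rrn3 window the copies of CACGTG begin at bases 36 and 203, counted from 1 at the 5′ end. In the Polr1c window CACGCG begins at base 76 and its reverse complement CGCGTG at base 82, so that they adjoin without overlap. The other windows with CACGCG on either strand belong to Polr1e, Taf1d and Ubtf. A match describes letters in the window and is no measure of binding.

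Polr1a encodes the largest subunit, the other part of the active centre. Its brightest probe set gave 247, 217 and 229 on positive arrays 1, 2 and 3, against 98.7, 75.3 and 175 on negative arrays 1, 2 and 3. The groups were apart, with negative array 3 closest to the positive ones. The log2 difference was 1.08 (SE 0.31, 95% interval 0.32 to 1.84, limma adjusted p = 0.104), so it did not pass. Without negative array 3 it was 1.42 and passed (adjusted p = 0.0273), and in none of the other 13 settings run did it pass. Its probe sets 1460215_at and 1456066_a_at, also above the array median, gave log2 differences of 0.90 and 0.65 (limma adjusted p = 0.196 and 0.0973 over all probe sets). The last 2 of its 5 probe sets had intensities of 3.89 to 4.82 on positive and 4.098 to 5.32 on negative arrays, far under the array medians.

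Polr1e encodes a subunit known as PAF53, which pairs with the product of Cd3eap on the core enzyme. Its brightest probe set gave 1629.9, 1485 and 1556 on positive arrays 1, 2 and 3, against 997, 861 and 1496 on negative arrays 1, 2 and 3. Negative array 3 reached the positive range, so the groups overlapped. Polr1e had a log2 difference of 0.52 (95% interval -0.03 to 1.06, adjusted p = 0.247). The name of this probe set, 1435057_x_at, marks probes that may also match other transcripts. Its other probe set, 1419058_at, gave 672, 393 and 563 on positive and 322, 184 and 277 on negative arrays 1, 2 and 3, with the groups apart. There the log2 difference was 1.06 (adjusted p = 0.0868 over all probe sets), and with the array number as a block it passed (0.0296).

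Polr1c and Polr1d encode a pair of subunits that RNA polymerase I shares with RNA polymerase III, which makes transfer RNAs and the small ribosomal RNA of the large subunit. The brightest Polr1c probe set, 1449648_s_at, has a name that marks probes shared by several transcripts. It gave 2006, 831 and 1155 on positive arrays 1, 2 and 3, against 710.3, 449.96 and 553 on negative arrays 1, 2 and 3. The groups did not overlap, and positive array 1 stood far above the other positive arrays. Polr1c had a log2 difference of 1.15 (SE 0.35, 95% interval 0.29 to 2.01, adjusted p = 0.121). With the array number as a block it passed (adjusted p = 0.0393), in a fit that called 5.75% of all genes higher. The other Polr1c probe set, 1417041_at, gave 687, 547 and 714 on positive arrays, against 411, 310.2 and 424 on negative arrays. Its log2 difference was 0.77 (adjusted p = 0.0651 over all probe sets, and 0.0444 with the block).

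Polr1d, whose product binds that of Polr1c, gave 2935, 2424 and 2316 on positive arrays 1, 2 and 3, against 1798, 1884 and 5242 on negative arrays 1, 2 and 3. Negative array 3 was the highest of the 6 and negative arrays 1 and 2 the lowest. For Polr1d the log2 difference was -0.04, with a wide 95% interval of -1.08 to 1.01 (adjusted p = 0.977), and without negative array 3 it was 0.47 (adjusted p = 0.195). The other 3 probe sets gave log2 differences of 0.38 to 0.40, none of them called (adjusted p = 0.328 to 0.483 over all probe sets). On these 3, negative array 3 stood at 1321, 758 and 691, the highest negative array by a smaller margin. The value of 5242 on that array thus belongs to 1 of 4 probe sets. The difference between Polr1c and Polr1d was not tested.

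Rrn3, the factor that makes the polymerase competent to start, gave 3939, 4856 and 4660.4 on positive arrays 1, 2 and 3, against 4566, 3458 and 3733 on negative arrays 1, 2 and 3. The groups overlapped, with the lowest positive value under the highest negative one, and both of these came from arrays numbered 1. The fold was 1.15 (log2 difference 0.20, 95% interval -0.20 to 0.60, adjusted p = 0.571). A rise of more than 0.60 on the log2 scale lies outside that interval. It was called in none of the 14 other settings.

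Ubtf, whose product UBF binds along the ribosomal genes and keeps them in an open state, gave 6791, 6161 and 5426 on positive arrays 1, 2 and 3, against 5591, 7314 and 5692 on negative arrays 1, 2 and 3. The groups were interleaved. The log2 difference was -0.01 (95% interval -0.42 to 0.39, adjusted p = 0.98). The other Ubtf probe set, 1460304_a_at, was dim, with 137, 127 and 113 on positive and 93.6, 96.4 and 66.7 on negative arrays 1, 2 and 3. There the groups did not overlap, and the difference was 0.57 (adjusted p = 0.138 over all probe sets).

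Taf1c, a subunit of SL1, was the only one of the 10 genes with lower values in every positive array. It gave 153, 185 and 189 on positive arrays 1, 2 and 3, against 254, 226 and 260.02 on negative arrays 1, 2 and 3. For Taf1c the log2 difference was -0.49 (SE 0.14, 95% interval -0.84 to -0.15, adjusted p = 0.105), a fold of 1.41 lower that did not pass. Across its other settings the adjusted p ran between 0.0549 and 0.266. Its single probe set, 1423483_s_at, has a name that marks probes shared by several transcripts.

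Taf1a, another SL1 subunit gene, was dim, at 82.1, 63.7 and 58.3 on positive arrays 1, 2 and 3, against 56.9, 56.1 and 119.5 on negative arrays 1, 2 and 3. Most of these values lay in the range of the genes of other organs, though all were above the 90th percentile of those genes, 37.55. Negative array 3 was again the highest. Taf1a had a log2 difference of -0.11 (95% interval -0.91 to 0.70, adjusted p = 0.911), and 0.25 without negative array 3 (adjusted p = 0.549).

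Taf1d, the third SL1 subunit gene, had 7 probe sets that did not give one answer. The brightest, 1430147_a_at, gave 796, 803 and 874 on positive arrays 1, 2 and 3, against 677, 742 and 1011 on negative arrays 1, 2 and 3. Its groups overlapped, with a log2 difference of 0.05 (95% interval -0.40 to 0.49, adjusted p = 0.93). The dimmest, 1436558_at, gave 92.9, 59.7 and 77.6 on positive and 26.3, 22.2 and 34.0 on negative arrays 1, 2 and 3. It was the only Taf1d probe set that was called, 2.79-fold higher in positive cells (log2 difference 1.48, adjusted p = 0.0242 over all probe sets), and its negative values were at the level of the genes of other organs. That call was lost without any 1 of the 3 positive arrays (adjusted p = 0.0625 to 0.0828) or negative array 2 (0.0762). The other 5 gave log2 differences of -0.30 to 1.34. The mean of all 7 gave 0.58 and passed (adjusted p = 0.0444), in a fit that called 5.59% of all genes higher. Which transcripts of Taf1d each probe set reads was not analysed here.

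Over all 26 probe sets, 2 were called higher, those of Polr1b and the dimmest of Taf1d, and none lower. Among all probe sets with a single gene symbol, 4.76% were called higher and 2.16% lower. The groups did not overlap for 13 of the 26, with positive arrays above for 12 and below for 1, while 28.6% of all probe sets had groups apart. Of these 13, Taf1d gave 4 and Polr1a and Polr1c 2 each, so they are not independent. Of the 21 probe sets above the array median on all 6 arrays, none was called. With the array number as a block, 7 of the 26 were called higher, against 5.41% of all probe sets in that fit. The added ones were both Polr1c probe sets and 1 each of Polr1a (1460215_at), Polr1e and Taf1d (1442289_at). The shares over all probe sets were not matched for brightness.

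**Figure D2:**
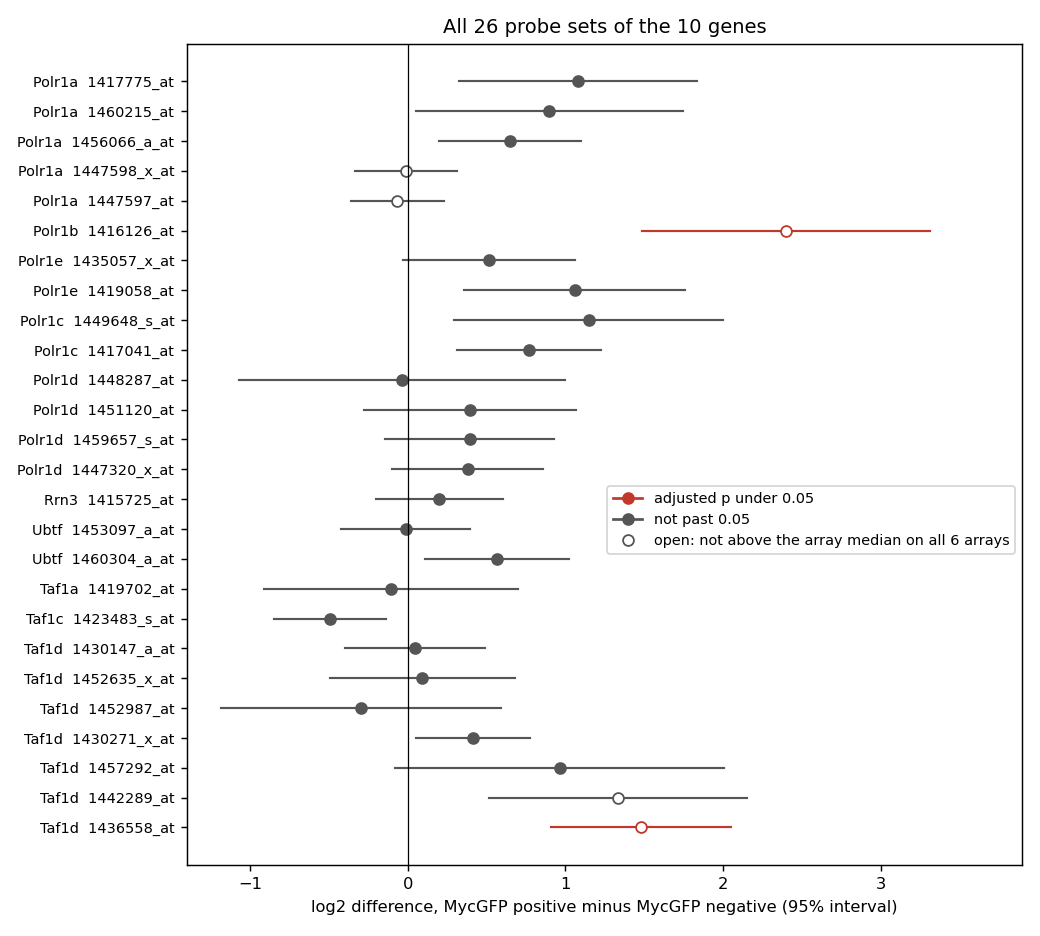
Log2 difference, MycGFP positive minus MycGFP negative, with its 95% interval from limma for each of the 26 probe sets, grouped by gene. Red marks an adjusted p under 0.05 over all probe sets, and open circles mark probe sets not above the array median on all 6 arrays. The 2 called probe sets, of Polr1b and Taf1d, are both open, and Polr1a and Taf1d have probe sets that differ widely.

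Set within each array number, the differences were larger for numbers 1 and 2 than for number 3. The median log2 difference over the 10 genes was 0.62 for number 1, 0.43 for number 2 and -0.01 for number 3, with 8, 8 and 5 of the 10 genes higher in the positive array. Over all genes the medians were 0.05, 0.04 and -0.01 (54.4%, 53.8% and 48.3% of genes higher). Polr1b had log2 differences of 3.34, 2.46 and 1.39 for numbers 1, 2 and 3, so it was higher within each. Polr1a had 1.32, 1.52 and 0.39, Polr1c 1.498, 0.89 and 1.06, and Polr1e 0.71, 0.79 and 0.06. Polr1d and Taf1a had opposite signs between numbers, with 0.71 and 0.53 for number 1 and -1.18 and -1.03 for number 3. Signs also differed for Rrn3 (-0.21, 0.49 and 0.32), Ubtf (0.28, -0.25 and -0.07) and Taf1d (0.23, 0.11 and -0.21). Taf1c was lower within every number, at -0.73, -0.29 and -0.46.

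Negative array 3 was the highest negative array for 7 of the 10 genes and the lowest for none, while over all genes it was the highest for 38.7% and the lowest for 27.6%. Without it, Polr1a joined Polr1b among the called genes and the median log2 difference of the 10 genes was 0.36. In that fit 586 of all genes were called higher, against 840 with all arrays. Neither the Polr1a call nor the larger median is separate evidence, since negative array 3 was singled out by its high values for these genes. The same array had the lowest mean log2 intensity of 19 measured genes of S phase and mitosis, 8.26, against 10.05 and 8.82 on negative arrays 1 and 2. On positive arrays 1, 2 and 3 that mean was 11.30, 11.10 and 10.97. The part of cycling cells in the results was not tested.

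**Figure D3:**
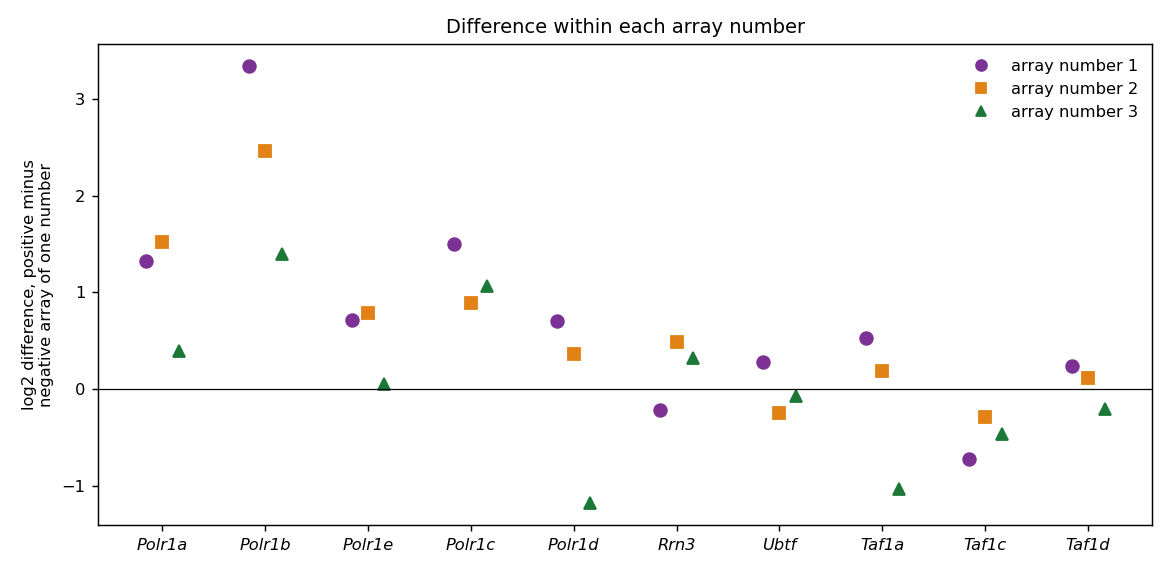
Log2 difference between the positive and the negative array of one number, for each of the 10 genes, with symbols and colours for numbers 1, 2 and 3. Polr1b, Polr1a and Polr1c lie above 0 for every number and Taf1c below 0, while number 3 lies lowest for Polr1d and Taf1a, at -1.18 and -1.03.

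Among other parts of the same machinery, 1 of 6 measured further subunit genes was called, while 4.62% of all genes were called higher. Polr2h, whose product is common to all 3 nuclear polymerases, gave 1421, 1238 and 1065 on positive arrays 1, 2 and 3, against 658, 735 and 698 on negative arrays 1, 2 and 3. It was 1.77-fold higher (adjusted p = 0.035, and 0.0571 with the block). All 6 further subunit genes had a difference above 0, with a median log2 difference of 0.71. Znrd1, Cd3eap and Twistnb, whose products are found in RNA polymerase I only, had log2 differences of 0.60, 0.17 and 0.09 (adjusted p = 0.379, 0.735 and 0.789), and are named after their values were seen. Of 5 measured promoter, elongation and termination factor genes, Tbp was called. TBP is the subunit that SL1 shares with the factors of the other polymerases. Tbp gave 2108, 1645 and 1686 on positive and 1119.9, 1004 and 982 on negative arrays 1, 2 and 3, with the groups apart. The fold was 1.74 (adjusted p = 0.0374). Both calls were lost without any 1 of the 6 arrays.

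Of 18 measured nucleolar coactivators and repressors of the ribosomal genes, 4 were called higher and none lower, at a median log2 difference of 0.44. Over all genes 4.62% were called higher. The list mixes activators and repressors. At an unadjusted limma p under 0.05, 9 of the 18 were higher and 2 lower, Baz2a and Kdm2a, at log2 differences of -0.95 and -0.36. Nat10, an RNA acetyltransferase of the nucleolus, was 2.82-fold higher (adjusted p = 0.0116), a log2 difference of 1.497 that was 0.61 with its probe sets averaged (0.0532). Actl6a, Ruvbl1 and Ruvbl2, which encode parts of chromatin remodelling complexes, were 2.15-fold, 1.84-fold and 2.03-fold higher (adjusted p = 0.02, 0.0261 and 0.031). These 4 were called in 11, 9, 7 and 8 of the 14 other settings. The t-UTP proteins join the nascent ribosomal RNA and are needed for its synthesis as well as its processing. Of their 6 measured genes, Heatr1, Wdr75 and Utp4 were called higher (3.30-fold, 3.09-fold and 2.33-fold), and the median log2 difference of the 6 was 1.03. For Heatr1 the log2 difference was 1.72, and 0.96 with its probe sets averaged (adjusted p = 0.0484). Without positive array 2 no gene of any list was called.

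The other nuclear polymerases were set beside these genes. Of 8 genes of RNA polymerase II, core subunit genes and Polr2m, which is not one, none was called by limma. At an unadjusted p under 0.05, 4 were higher. Of all 18193 genes, 2677 were higher at that level. Polr2i and Polr2b had the largest log2 differences, 1.003 and 0.84 (adjusted p = 0.152 and 0.145), and the median of the 8 was 0.64. Of 10 subunit genes specific to RNA polymerase III, Polr3e was called, 2.50-fold higher (adjusted p = 0.0408), and their median was 0.40. The Polr3e call was lost without any 1 array other than negative array 3, and with its probe sets averaged the log2 difference was 0.74, against 1.32 for the brightest (adjusted p = 0.0869). Of 16 genes for initiation factors of RNA polymerase III and its repressor Maf1, Gtf3c6, a TFIIIC subunit gene, was called, 2.24-fold higher (adjusted p = 0.0376, and 0.0583 with the block), at a median of 0.38. Its call was lost without any 1 of the 6 arrays. Of 27 general initiation factor genes of RNA polymerase II, Gtf2e2, a TFIIE subunit gene, was called, 2.04-fold higher (adjusted p = 0.0177), at a median of 0.32. These shares of 10% (RNA polymerase III subunits), 6.25% (its initiation factors) and 3.7% (RNA polymerase II factors) stand against 4.62% of all genes called higher. Each rests on 1 gene. Of 7 measured genes for signalling regulators of RNA polymerase I, Myc alone was called and the median was -0.01. The cells were sorted on the GFP that reports MYC, so that call is no result about these regulators. Of 19 genes of S phase and mitosis, 9 were called higher at a median log2 difference of 2.19, with Mcm6, Cdt1, Mcm5 and Mcm4, which act in origin licensing and the replicative helicase, at 5.89-fold, 3.83-fold, 5.28-fold and 2.90-fold higher (adjusted p = 0.0162 to 0.0233). That count of 9 was 0 without any 1 of the positive arrays, 17 without negative array 1, 1 without negative array 2 and 5 without negative array 3. Of the 16 genes of other organs none was called, at a median of 0.01.

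**Figure D4:**
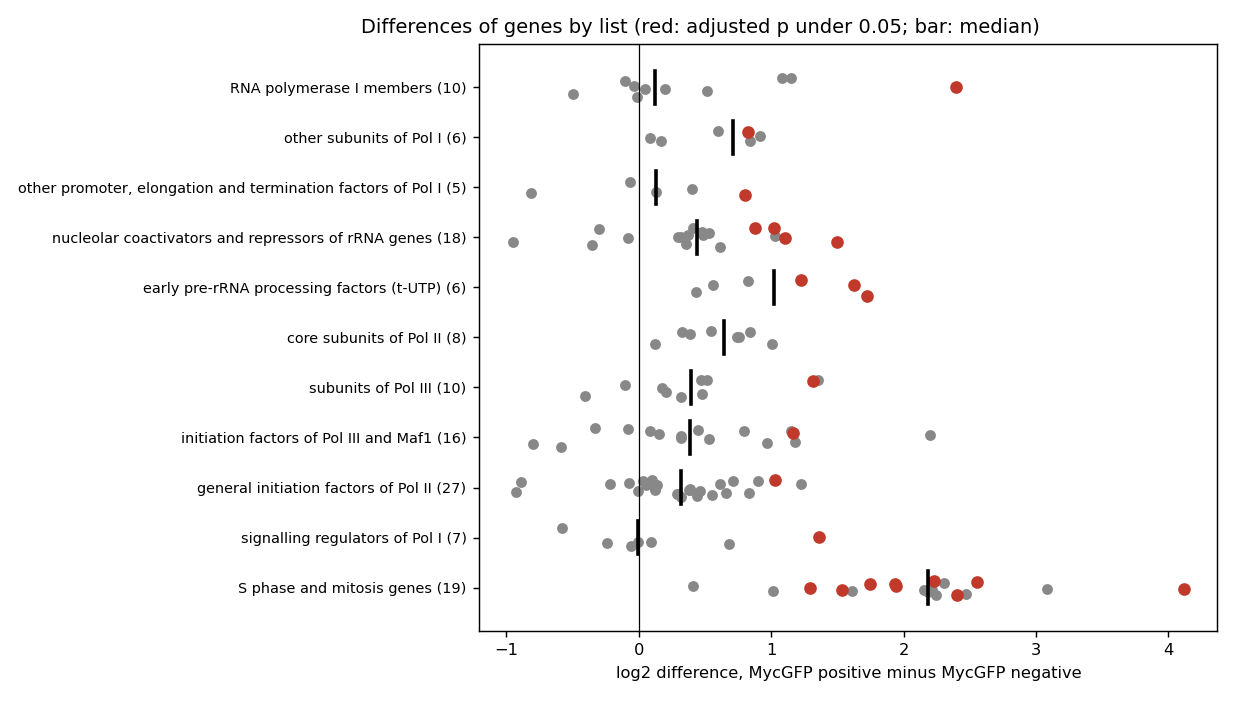
Log2 difference, MycGFP positive minus MycGFP negative, of each measured gene in the 10 RNA polymerase I genes and 10 further lists, with the number measured in brackets, a bar at the median and red for an adjusted p under 0.05 over all genes. Polr1b, at 2.40, is the called point in the uppermost row, and the median of that row is 0.12.

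Genes outside the 10 were searched for values like their mean profile, among those with a mean log2 value above the median of all 18193. The 5 most alike were Aprt, Mfn1, Eif4e2, Dis3 and Fbxw4, with Pearson's r of 0.997, 0.996, 0.995, 0.993 and 0.991 over the 6 arrays. These values describe the arrays, which share the group difference. The mean profile, centred on 0, stood at 0.36, 0.18 and 0.17 on positive arrays 1, 2 and 3, against -0.41, -0.45 and 0.14 on negative arrays 1, 2 and 3. None of the 5 was itself called (adjusted p = 0.161 to 0.259).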

How the data were processed

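RNA of 6 arrays was measured, 5 ng of total RNA per sample amplified with the Ovation system and labelled with biotin, per the labels' protocols. The authors deposited linear-scale intensity values for 45101 probe sets, made with RMA per the submitters' processing notes. RMA brings the arrays to similar distributions, with medians of 30.5 to 32.7, so that RNA content per cell cannot be read from the values. The plan assumed log2 values, and the deposited intensities were therefore log2-transformed before the planned test. No detection calls were used.

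Gene names for probe sets come from the annotation of the platform, with symbols updated by Entrez identifier through the RefSeq table of GRCm38.p6 (34741 matched). Probe sets with several symbols (932) and 64 control probe sets were left out. A gene was represented by its brightest probe set, the one with the highest mean log2 value over the 6 arrays. The lmFit and eBayes functions of limma 3.58.1, run in R 4.3.3 (two-sided, 4 residual and 2.17 prior degrees of freedom), were applied to 18193 genes and, for further probe sets, to 34945 probe sets. P-values were adjusted by Benjamini-Hochberg over each whole table, with a threshold of 0.05. The script was tested on simulated data. Only the spread between these 6 sorted samples enters the p-values.

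The members and the lists were chosen with earlier results of these data known. Named were all members, Myc and up to 4 called genes per list by adjusted p (the 2 largest differences where none was called). The 5 genes of most similar profile, among non-members with a mean log2 value above the median of all genes, were named too. Array numbers come from the titles. After subtracting group means, the correlation across genes was 0.38, 0.209 and 0.388 for same-numbered arrays and -0.32 to -0.032 for the others. The numbers were therefore taken to pair the arrays, which the labels themselves do not state. The settings tried were the replicate block, leaving out each array, median centring, the mean of all probe sets, no probe sets named _s_at or _x_at, a filter at the median of all genes, log2 of intensity plus 16, a trended robust variance and array weights.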

Additional observations from a re-analysis of the deposited data

How the results depend on the processing

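The calls rest on 3 arrays a group. Leaving out 1 array gave 0 to 862 genes called higher and 0 to 238 lower, against 840 and 275 with all arrays, and 0 to 2 of the 10 genes higher. Without positive array 2 limma called no gene (smallest adjusted p = 0.0591), although 2209 had positive and 976 negative differences at unadjusted p below 0.05. With the array number as a replicate block, or when a gene's probe sets were averaged, 2 of the 10 genes were called higher, adding Polr1c and Taf1d in turn, where 1047 and 1017 of all genes were called higher. The block ended no call among the 10 genes. After centring each array on its median, the median difference was -0.14 over all genes (log2), that of the 10 genes was -0.03, and 502 genes were then called higher and 381 lower. The mean of all probe sets gave a median of 0.40 for the 10 genes. No setting called any of the 10 lower, and the lowest adjusted p of Taf1c was 0.0549. Without probe sets named _s_at or _x_at Taf1c had no value.

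Uncalled genes near 0 changed sign. Leaving out 1 array gave log2 differences of -0.30 to 0.47 for Polr1d, -0.089 to 0.11 for Ubtf, -0.29 to 0.25 for Taf1a and -0.073 to 0.22 for Taf1d. It gave -0.62 to 0.035 for 1452987_at and -0.16 to 0.23 for 1452635_x_at, both of Taf1d, and -0.069 to 0.071 for 1447598_x_at of Polr1a. Centring gave -0.10 for Taf1d and -0.058 for 1452635_x_at. The mean of all probe sets gave 0.28 for both Polr1d and Ubtf. The cause of these shifts was not tested. Of 139 values of the 10 genes under the alternatives, 122 kept both direction and side of the threshold.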
